A study of Mus musculus with 8 samples.

Results

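Interferon-stimulated genes and their regulators were followed in hematopoietic stem cells (HSCs) and in the wider LSK progenitor population cultured with or without red blood cells (RBCs). The set held 44 genes chosen by name for their known roles, out of 24346 gene symbols in the files. It covered type I interferon-stimulated genes, the interferon receptors, and STAT and IRF transcription factors. The Gbp family of GTPases was left out of it. All 44 were found in the files, and 41 passed the expression filter of at least 1 FPKM (fragments scaled to transcript length and to the mapped fragments of the library) in at least 2 libraries. The remaining 3, Ifit3, Mx1 and Mx2, were measured but not tested.

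The study asked which genes respond when HSCs and progenitors are cultured in contact with RBCs. RNA was sequenced from 8 libraries in 4 groups, with 2 libraries per group, all from wild-type (WT) mouse bone marrow. HSCs were sorted as lineage-negative Sca-1+ c-Kit+ CD48- CD150+ cells and LSK cells as Lin-/Sca-1+/cKit+ cells, so that the LSK gate also takes in the HSC phenotype. Each population was cultured for 1 day in serum-free medium with thrombopoietin and stem cell factor, either alone or with RBCs from peripheral blood of C57BL6/J mice that had been filtered to remove leukocytes and then irradiated. All 4 groups, those without RBCs included, were treated with hemolysis buffer after culture, and about 3000 CD45-positive cells were sorted per library. The second sort used CD45 alone, so each library holds whatever CD45-positive cells the culture contained. The sources used here do not say whether the libraries of a group came from separate mice or cultures, so that p-values measure the spread between these libraries only.

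Type I interferons bind a receptor made of Ifnar1 and Ifnar2, which activates Jak1 and Tyk2. A complex that contains Stat2 and Irf9 then enters the nucleus and binds the interferon-stimulated response element (ISRE) in the promoters of its target genes. Interferon-γ acts through Ifngr1 and Ifngr2, and its targets carry the gamma-activated site (GAS). In bone marrow, interferons are known to push quiescent HSCs into cycle, while stem cells keep some interferon-stimulated genes expressed without an infection.

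The promoters of some members that differed between groups are shown because these elements lie there. RefSeq promoter windows (GRCm38.p6) were found for 35 of the 44 members. None was found for Dhx58, Mx1, Mx2, Oas2, Zbp1, Usp18, Parp9, Parp14 and Rtp4, so that Rtp4, with the smallest adjusted p of the set, is not shown. The 8 shown belong to the matched members with the smallest adjusted p-values in any comparison, and each covers the 250 bases before the annotated start site on the strand of the gene. Capitals mark the ISRE core, which is GAAA, then 2 bases of any kind, then GAAA, or the reverse complement of this, in Ifitm2, Rsad2 and Oas3, and the GAS palindrome TTCNNNGAA in Ifit2. No capitals appear in the other 4, which says only that these letters are not in this window.
Irf7, chr7:141266425-141266674, minus strand: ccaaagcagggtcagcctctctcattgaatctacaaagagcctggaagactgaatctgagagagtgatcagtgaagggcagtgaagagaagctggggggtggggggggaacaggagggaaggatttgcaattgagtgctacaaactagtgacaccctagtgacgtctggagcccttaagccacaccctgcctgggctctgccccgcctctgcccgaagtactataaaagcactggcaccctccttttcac
Ifi44, chr3:151749911-151750160, minus strand: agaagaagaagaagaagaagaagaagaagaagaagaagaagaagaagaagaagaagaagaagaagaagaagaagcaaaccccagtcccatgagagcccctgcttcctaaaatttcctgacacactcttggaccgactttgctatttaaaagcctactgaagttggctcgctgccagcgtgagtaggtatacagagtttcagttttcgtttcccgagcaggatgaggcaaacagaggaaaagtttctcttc
Ifngr1, chr10:19591699-19591948, plus strand: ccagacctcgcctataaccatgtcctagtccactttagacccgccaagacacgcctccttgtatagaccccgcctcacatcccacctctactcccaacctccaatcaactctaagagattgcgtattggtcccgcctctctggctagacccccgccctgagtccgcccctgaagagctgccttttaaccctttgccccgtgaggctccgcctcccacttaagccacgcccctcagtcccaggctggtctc
Ifitm2, chr7:140955962-140956211, minus strand: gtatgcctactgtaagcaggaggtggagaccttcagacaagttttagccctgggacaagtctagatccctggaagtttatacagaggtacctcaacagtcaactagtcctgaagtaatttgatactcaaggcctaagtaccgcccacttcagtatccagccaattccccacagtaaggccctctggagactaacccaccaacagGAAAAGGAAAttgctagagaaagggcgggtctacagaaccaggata
Oasl2, chr5:114896684-114896933, plus strand: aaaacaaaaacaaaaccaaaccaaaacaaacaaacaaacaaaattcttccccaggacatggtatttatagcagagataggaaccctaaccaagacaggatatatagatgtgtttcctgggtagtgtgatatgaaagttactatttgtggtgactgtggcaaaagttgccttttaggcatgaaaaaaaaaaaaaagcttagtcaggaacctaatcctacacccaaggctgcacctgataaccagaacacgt
Rsad2, chr12:26456453-26456702, minus strand: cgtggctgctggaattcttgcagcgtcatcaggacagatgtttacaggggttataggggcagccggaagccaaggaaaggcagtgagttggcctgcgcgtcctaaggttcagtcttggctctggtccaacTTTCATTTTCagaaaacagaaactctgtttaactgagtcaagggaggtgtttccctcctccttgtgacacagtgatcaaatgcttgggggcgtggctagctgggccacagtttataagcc
Ifit2, chr19:34550444-34550693, plus strand: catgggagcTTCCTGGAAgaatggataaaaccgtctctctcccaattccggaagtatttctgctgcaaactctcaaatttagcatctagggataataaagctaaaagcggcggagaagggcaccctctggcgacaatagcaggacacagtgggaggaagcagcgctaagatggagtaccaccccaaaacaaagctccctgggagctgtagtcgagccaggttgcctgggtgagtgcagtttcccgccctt
Oas3, chr5:120777660-120777909, minus strand: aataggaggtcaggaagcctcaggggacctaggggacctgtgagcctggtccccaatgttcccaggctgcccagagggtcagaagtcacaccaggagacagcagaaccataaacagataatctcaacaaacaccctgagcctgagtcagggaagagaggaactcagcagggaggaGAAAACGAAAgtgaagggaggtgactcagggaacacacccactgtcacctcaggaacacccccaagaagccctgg

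Counted over the whole window from 250 bases before to 50 after the start site, an ISRE core was present in 15 of the 35 matched members, or 42.9%, against 3.99% of the 27025 genes in the promoter table. The GAS palindrome was present in 13 of the 35, or 37.1%, against 9.55% of all genes. Both motifs were read on both strands. The ISRE cores within Isg15, within Oas1a and within Bst2 overlapped one another, and a GAS match overlapped an ISRE core in Bst2 and in Ifitm3. Isg15, a ubiquitin-like modifier, held 3 ISRE cores between 78 and 57 bases before its start site. In Ddx58, Ifih1, Eif2ak2 and Ifitm3 the ISRE core lay after the start site. Trim30a held a core before the start site in a window (−36 to −27) and after it in another (2 to 11). The plot of ISRE core positions shows where each match lay. Among the matched members past the filter, the 14 with an ISRE core had a median mean RBC effect of 0.03 on the log2 scale. The 20 without one had 0.10. For the mean difference between LSK cells and HSCs the medians were −0.18 and −0.06. These medians are a description, and a match of letters does not show that a factor binds there.

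**Figure D1:**
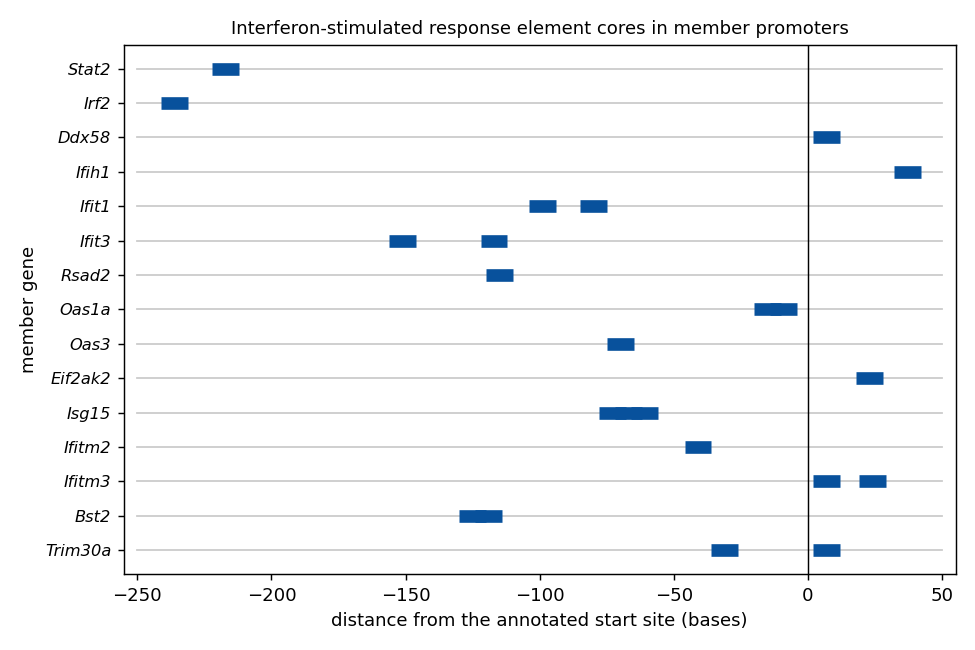
Position of each ISRE core in the promoter windows of the 15 members that hold one. The horizontal axis is the distance in bases from the annotated start site, blue blocks are matches on either strand, and grey lines are the windows searched. Blocks of Isg15, Oas1a and Bst2 overlap or touch, and those of Ddx58, Ifih1, Eif2ak2 and Ifitm3 lie at or after the start site. Trim30a has blocks on both sides, which come from windows of different start sites drawn on the same line.

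The libraries were close in total. Summed FPKM ranged from 680942 to 752107, all 44 members were above 0 in each of the 8 libraries, and depth relative to the first LSK library without RBCs, read from the steps between low values, ranged from 0.886 to 1.13. Absolute depth is not known from FPKM. The labels matched the gates in the cells cultured alone: Slamf1, which encodes CD150, was at 10.2 and 10.7 FPKM in HSCs against 4.58 and 4.63 in LSK cells, and Cd48 was at 42.7 and 40.5 against 146.5 and 184. Some marker lists of mature blood cells moved with the groups. The 11 neutrophil markers summed to 32.4 to 39.3 FPKM in HSCs alone, 88.5 to 299 with RBCs, 188 to 285 in LSK cells alone and 447 to 654 with RBCs. No neutrophil marker was at 0 in both libraries of a group, apart from 2 in HSCs alone, Lcn2 and Mmp9. The 8 monocyte or macrophage markers summed to 4.65 to 8.32, 13.9 to 17.1, 26.7 to 34.5 and 90.8 to 104 FPKM in the same order, with C1qa at 0 in all 8 libraries. The B cell, T cell and NK cell markers had 4 tested genes among them, and 0 were called with RBCs in either cell type. Of 8 RBC markers in the files, 6 were tested, and 3 were called higher with RBCs in HSCs and 1 in LSK cells. Hba-a1, an α-globin gene with a near-identical copy, was at 0.0826 and 1.40 FPKM in HSCs alone, 116 and 88.7 with RBCs, 0.864 and 1.53 in LSK cells alone and 32.9 and 43.1 with RBCs. Not all listed markers rose. Hbb-b2 was at 279 and 335 FPKM in HSCs alone, 120 and 158 with RBCs, 109 and 173 in LSK cells alone and 128 and 54.1 with RBCs. Hbb-b1 was at 1.93 and 1.94 FPKM in HSCs alone, 65.1 and 31.0 with RBCs, 0.907 and 2.12 in LSK cells alone and 0.0438 and 0.0145 with RBCs. The summed RBC markers ranged from 282 to 338 and from 299 to 308 FPKM in HSCs without and with RBCs, and from 111 to 177 and from 119 to 184 in LSK cells. The part of such cells in the results below was not tested.

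The members spanned a wide range of levels. Averaged over the 8 libraries, 5 members were at 100 FPKM or more, 22 from 10 to under 100, 14 from 1 to under 10 and 3 under 1. The interferon-induced transmembrane genes Ifitm1, Ifitm2 and Ifitm3, which restrict virus entry at cell membranes, made up most of the set. Together they summed to 6873 to 11343 FPKM, which was 1.01% to 1.51% of each library's total. The other 41 members together summed to 808 to 948 FPKM. The heatmap of all members shows the level of each gene in each library around its own mean.

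**Figure D2:**
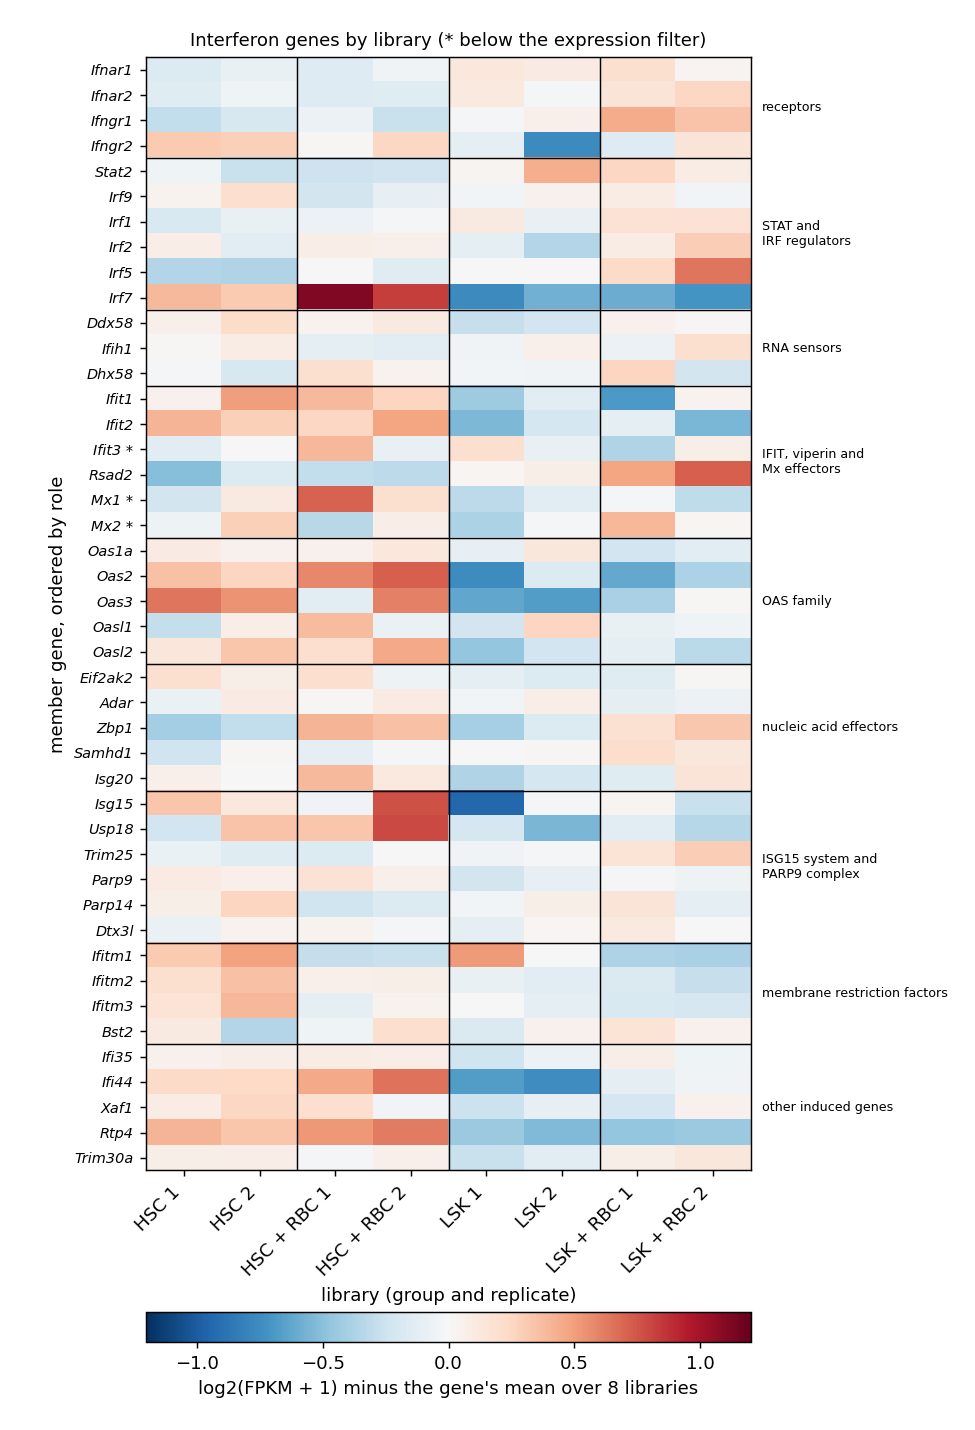
Level of the 44 members in the 8 libraries, ordered by role. Colour gives log2(FPKM + 1) minus the mean of that gene over the 8 libraries (red above, blue below). Irf7, Rtp4, Ifi44, Oas2 and Oas3 are mostly red in HSCs and blue in LSK cells, whereas columns with and without RBCs differ little within a cell type.

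The ligands themselves were at the limit of detection. Of 21 interferon genes in the files, 15 were at 0 in all 8 libraries, Ifng and 11 genes of the interferon-α family among them, and none passed the filter. Summed over all 21, they reached 0.0648 to 1.23 FPKM per library. Ifnb1, which encodes interferon-β, was listed at 0.137 FPKM in the first library of HSCs with RBCs, at 0.618 in the first library of LSK cells with RBCs and at 0 in the other 6. In RNA from a mixed library, fewer expressing cells and less RNA per cell cannot be told apart, here and throughout.

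With RBCs, few of the 41 tested members passed the test, and no estimate on the log2(FPKM + 1) scale reached 2-fold. In HSCs, Zbp1 was higher with RBCs and Ifitm1 was lower. In LSK cells, Ifi44 and Ifngr1 were higher and Ifitm1 was again lower. By sign alone, 27 of 41 members were above 0 in HSCs and 32 of 41 in LSK cells, where 5791 and 5763 of the 12003 genes tested were above 0. Isg15, Ifit1, Ifit2, Oas1a and Oasl2, given as examples only, had RBC effects between −0.20 and 0.36 on the log2 scale in LSK cells. In HSCs their effects were between 0.01 and 0.13, and none of these genes passed the test. Over all 41 members the effects ran from −0.67 to 0.73 in HSCs and from −0.64 to 0.63 in LSK cells. Some other members had larger effects that did not pass either. These included Irf7 at 0.62, Usp18 at 0.51 and Parp14 at −0.36 in HSCs, and Rsad2 at 0.55 in LSK cells.

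By the test (limma on log2(FPKM + 1), with a change of 2-fold or more and a Benjamini-Hochberg adjusted p below 0.05), 0 of 41 members were called higher or lower with RBCs in HSCs, where 0.633% of all genes were called higher and 0.142% lower. In LSK cells 0 members were called in either direction as well, against 0.9% higher and 0.108% lower. With no fold limit, 1 member was higher and 1 lower in HSCs (1.57% and 0.958% of all genes), and 2 were higher and 1 lower in LSK cells (2.32% and 1.13%). At an unadjusted p under 0.05 the members numbered 4 higher and 4 lower in HSCs and 10 higher and 1 lower in LSK cells. Over all genes these counts were 811 and 830 of 12003 in HSCs and 1143 and 1085 in LSK cells. The median log2 fold change of the members was 0.04 in HSCs and 0.12 in LSK cells, where the median of all genes was −0.01 in both. The 95% interval of the RBC effect lay inside 2-fold in both directions for 39 of 41 members in each cell type, against 93.9% of all genes in HSCs and 93.5% in LSK cells. The exceptions were Zbp1 and Usp18 in HSCs and Isg15 and Oas3 in LSK cells. Each of the 5 changes within a cell type that passed with no fold limit lost its adjusted p under 0.05 when single libraries were left out, the adjusted p rising as far as 0.223 for Zbp1 and 0.223 for Ifitm1 in HSCs, and 0.166 for Ifi44, 0.229 for Ifngr1 and 0.22 for Ifitm1 in LSK cells.

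Taking both cell types together, 4 libraries with RBCs against 4 without, 2 members were higher and 1 was lower at an adjusted p under 0.05 (3.38% and 1.99% of all genes), and 0 passed the 2-fold limit (0.691% and 0.0583%). These were Zbp1 and Ifi44 on the higher side and Ifitm1 on the lower. The adjusted p of Zbp1 and of Ifitm1 stayed under 0.05 whichever library was left out. That of Ifi44 rose to 0.0574 without the second library of LSK cells with RBCs and to 0.0624 without the second library of HSCs with RBCs. The RBC effect did not differ between HSCs and LSK cells for any member at an adjusted p under 0.05 (0 called in limma, where 0.0333% of all genes were called higher and 0.075% lower, or 0.05% and 0.0833% with no fold limit, with 1 member higher and 6 lower in HSCs at an unadjusted p under 0.05, where 719 and 784 of the 12003 genes were). The smallest adjusted p for such a difference was 0.303, in Irf7.

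Counts of members whose libraries did not overlap were as follows. In HSCs the libraries with and without RBCs did not overlap for 10 members that were higher and 8 that were lower, against 19.9% and 21.8% of all genes. In LSK cells the counts were 17 and 5, against 24.2% and 26.4%. For 6 members, Irf1, Irf5, Zbp1, Isg20, Ifi35 and Ifi44, the libraries with RBCs lay above those without in both cell types, which held for 7.61% of all genes. Ifitm1, Ifitm2 and Ifitm3 were below in both, which held for 6.97%. The plot of RBC effects sets the values of each member in HSCs and LSK cells against each other.

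**Figure D3:**
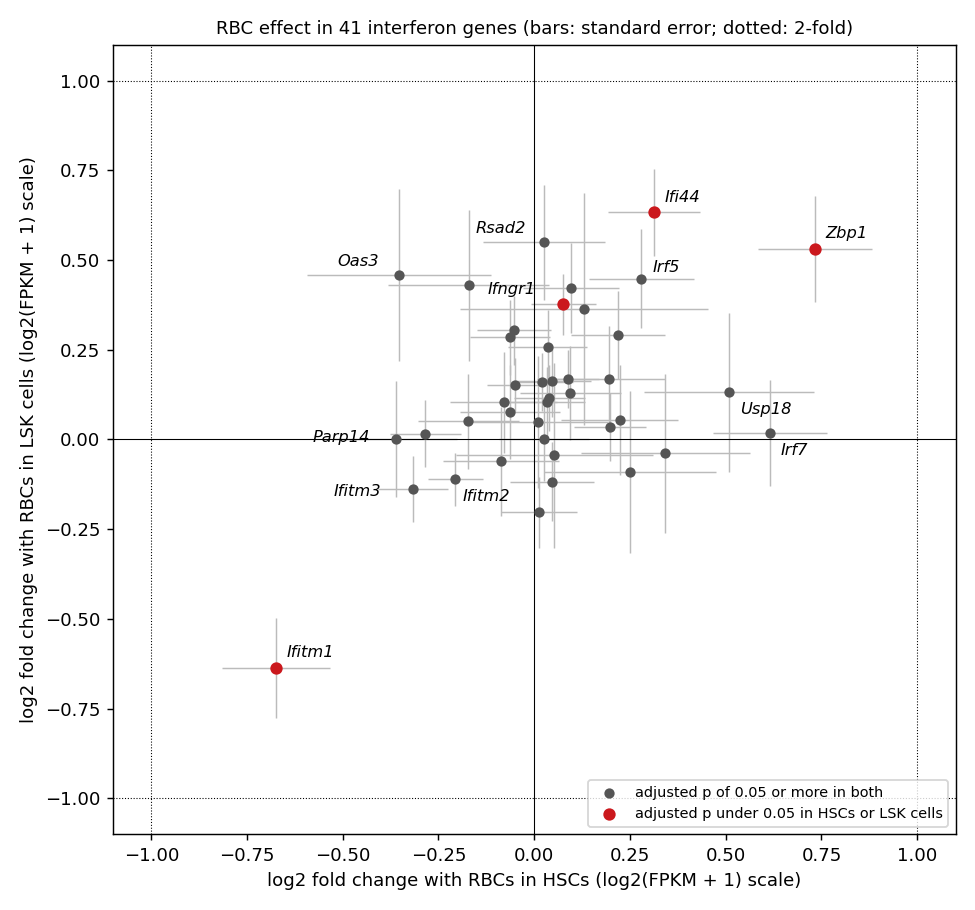
RBC effect on the 41 members past the filter, as log2 fold change on the log2(FPKM + 1) scale in HSCs (horizontal) and in LSK cells (vertical), from 2 libraries per group. Bars are standard errors, red points have an adjusted p under 0.05 in at least 1 cell type, and dotted lines mark 2-fold. Every point lies inside the 2-fold lines, with Zbp1 and Ifi44 at the upper right and Ifitm1 alone at the lower left.

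More members passed the test between the cell types than with RBCs. Averaged over both culture conditions, 14 of 41 members were lower in LSK cells than in HSCs at an adjusted p under 0.05 and 6 were higher, where 16.8% of all genes were lower and 16.1% higher. The lower members included the regulator Irf7, the effectors Rtp4 and Ifi44, and 3 genes of the OAS family. The higher members included the receptor chains Ifngr1 and Ifnar2 and the antiviral enzyme Rsad2. Irf7 alone passed the 2-fold limit in this mean difference, as 1 member lower and 0 higher, against 0.808% and 1.91% of all genes.

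Without RBCs, 2 members were called lower in LSK cells, Irf7 and Oas3, and 0 higher (1.03% and 1.62% of all genes). With no fold limit these counts were 11 and 0, against 7.29% and 6.93%. With RBCs, Irf7, Oas2 and Rtp4 were called lower and 0 members higher (1% and 2.61% of all genes). With no fold limit 8 were lower and 4 higher, against 12.5% and 11.9%. Not every one of these members, without or with RBCs, kept its adjusted p when single libraries were left out. Without RBCs the differences then ran from −1.06 to −0.47 in Oas2, −0.45 to −0.22 in Ifitm3 and −0.90 to −0.82 in Rtp4. With RBCs they ran from 0.31 to 0.72 in Irf5, −1.03 to −0.57 in Usp18 and −1.07 to −0.97 in Rtp4. At an unadjusted p under 0.05, 4 members were higher and 16 lower in LSK cells without RBCs, where 1695 and 1750 of the 12003 genes were, and 8 were higher and 10 lower with RBCs, where 2216 and 2292 were. The median difference of the members, LSK cells minus HSCs, was −0.20 without RBCs, −0.13 with RBCs and −0.12 in the mean of both, against 0.01 for all genes in each. Without RBCs the LSK libraries lay above the HSC libraries with no overlap for 7 members and below for 19 (28% and 26.9% of all genes), and with RBCs for 14 and 16 (33.7% and 33.1%). Over all 4 libraries of each cell type, 9 members were lower in LSK cells with no overlap and 5 were higher, against 13.7% and 13.6% of all genes. Of the 20 members with an adjusted p under 0.05 in the mean difference, 12 kept it whichever library was left out. The adjusted p of the other 8 rose to between 0.0566 in Usp18 and 0.151 in Parp9 when a single library was left out, with Irf1 at 0.113, Ddx58 at 0.136, Isg20 at 0.113, Stat2 at 0.0657, Ifitm3 at 0.0846 and Ifit1 at 0.1 between them.

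**Figure D4:**
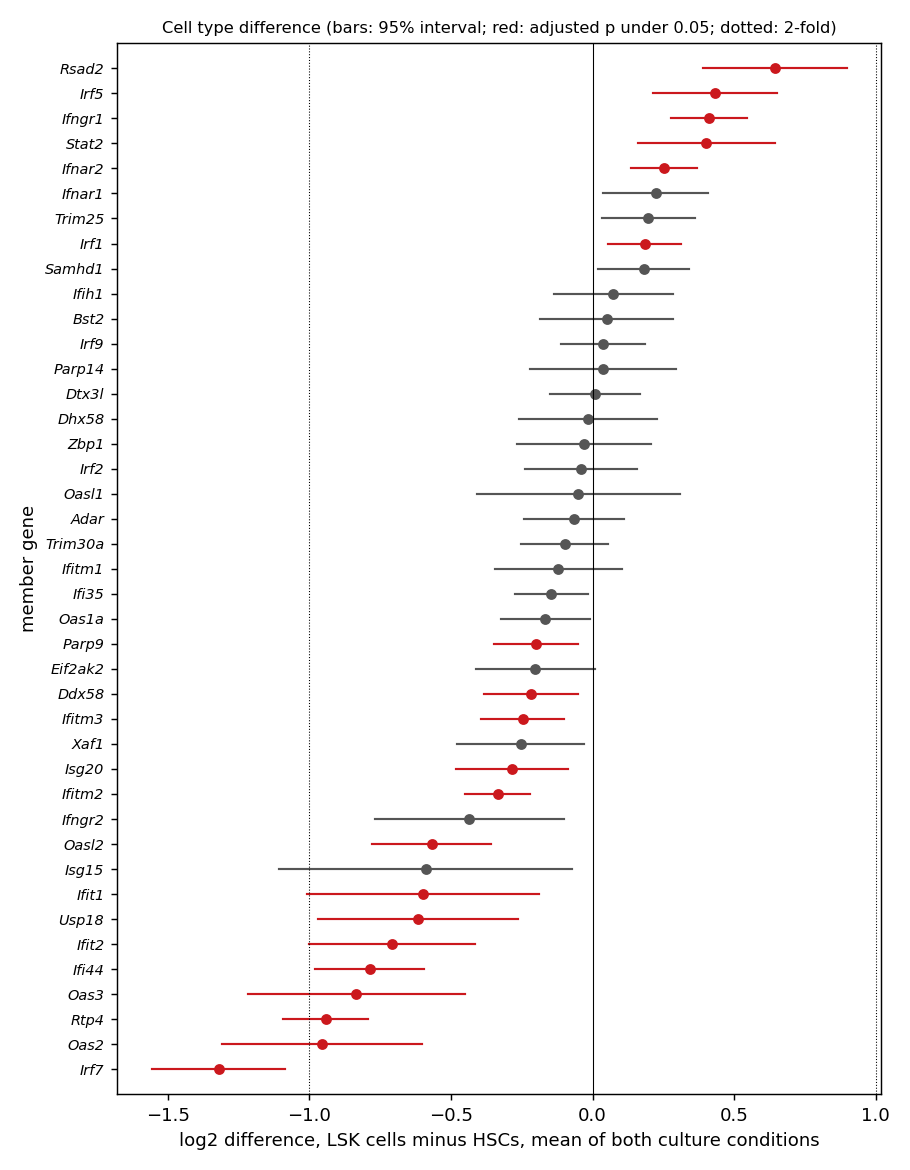
Difference between LSK cells and HSCs for the 41 members past the filter, as the mean of the difference without and with RBCs (log2 scale, 4 libraries per cell type). Points are estimates, bars are 95% intervals, red marks an adjusted p under 0.05 and dotted lines mark 2-fold. The interval of Irf7 alone lies wholly beyond the 2-fold line, and Rsad2 is at the top with the highest estimate.

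The receptors were expressed in all groups. Ifngr1, the ligand-binding chain of the interferon-γ receptor, was at 80.5 and 87.1 FPKM in HSCs alone, 94.5 and 82.5 with RBCs, 97.7 and 104 in LSK cells alone and 136 and 126 with RBCs. The libraries of LSK cells with RBCs were above all others. The RBC effect was 0.38 ± 0.08 (log2 fold change ± SE) in LSK cells, with an adjusted p of 0.0464, and 0.08 ± 0.08 in HSCs, with 0.793. The difference between those effects was −0.30 ± 0.12 and did not pass (adjusted p = 0.348). In the mean of both conditions LSK cells had more Ifngr1 than HSCs, by 0.41 ± 0.06 on the log2 scale (adjusted p = 0.00089). Ifngr2, the signalling chain of the same receptor, was at 10.2 and 9.99 FPKM in HSCs alone, 8.10 and 9.66 with RBCs, 7.37 and 4.30 in LSK cells alone and 7.07 and 8.98 with RBCs. Its second library of LSK cells alone was the lowest of the 8. It was lower in LSK cells than in HSCs without RBCs (−0.73 ± 0.21, adjusted p = 0.0471), but without that library the difference was −0.41 with an adjusted p of 0.242. For the type I receptor, Ifnar2 was at 83.4 and 88.9 FPKM in HSCs alone, 82.8 and 83.4 with RBCs, 100.2 and 91.5 in LSK cells alone and 103 and 110.2 with RBCs. All 4 LSK libraries were above all 4 HSC libraries, by 0.25 ± 0.05 in the mean (adjusted p = 0.00583), and the RBC effects were −0.05 ± 0.07 in HSCs and 0.15 ± 0.07 in LSK cells. Its partner Ifnar1 ranged from 8.55 to 11.2 FPKM and passed no test.

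Among the regulators, Irf7 separated the cell types most. Irf7, a transcription factor that drives induction of type I interferon genes and is itself interferon-stimulated, was at 8.28 and 7.81 FPKM in HSCs alone, 14.3 and 11.6 with RBCs, 3.18 and 3.74 in LSK cells alone and 3.70 and 3.32 with RBCs. Every HSC library was above every LSK library. The difference between LSK cells and HSCs was −1.02 ± 0.15 without RBCs (adjusted p = 0.00234) and −1.62 ± 0.15 with RBCs (adjusted p = 0.000133). Both HSC libraries with RBCs were above both without, by 0.62 ± 0.15 (adjusted p = 0.0734), which did not pass, and in LSK cells the RBC effect was 0.02 ± 0.15. Of 6 markers of plasmacytoid dendritic cells, which express Irf7, 5 were tested, and Siglech, Ccr9 and Cox6a2 were called higher in LSK cells while Tcf4 and Pacsin1 did not pass. The 6 summed to 13.0 to 14.1 FPKM in the HSC libraries and to 29.9 to 42.7 in the LSK libraries, with Klk1 at 0 in all HSC libraries. The part of such cells in the Irf7 values was not tested. Without the first library of LSK cells alone the Irf7 difference without RBCs was −0.93, and without the first library of HSCs alone it was −0.98, both inside 2-fold with an adjusted p under 0.05.

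Irf5, which acts downstream of Toll-like receptors, was at 11.4 and 11.3 FPKM in HSCs alone, 14.8 and 13.3 with RBCs, 14.7 and 14.7 in LSK cells alone and 17.6 and 23.7 with RBCs. Its libraries with RBCs were above those without in both cell types, by 0.28 ± 0.14 in HSCs and 0.45 ± 0.14 in LSK cells, neither of which passed (adjusted p = 0.428 and 0.123). It was higher in LSK cells in the mean of both conditions (0.43 ± 0.10, adjusted p = 0.00872). Irf1, an activator of interferon targets, was at 62.4 and 66.9 FPKM in HSCs alone, 67.5 and 70.0 with RBCs, 76.5 and 66.8 in LSK cells alone and 80.5 and 80.4 with RBCs. It showed the same order at a smaller scale, 0.09 ± 0.08 and 0.17 ± 0.08 with RBCs, and 0.18 ± 0.06 between LSK cells and HSCs (adjusted p = 0.0355). Irf2, which competes with Irf1, ranged from 13.8 to 22.2 FPKM and passed no test, its largest RBC effect being 0.42 ± 0.12 in LSK cells (adjusted p = 0.11). Stat2 was at 10.6 and 8.96 FPKM in HSCs alone, 9.07 and 9.15 with RBCs, 11.2 and 15.2 in LSK cells alone and 13.2 and 11.8 with RBCs. It was higher in LSK cells than in HSCs (0.40 ± 0.11, adjusted p = 0.0191) and had RBC effects of −0.09 ± 0.15 and −0.06 ± 0.15. Irf9, its partner, was at 33.7 and 37.7 FPKM in HSCs alone, 27.8 and 30.4 with RBCs, 31.9 and 33.9 in LSK cells alone and 34.7 and 31.9 with RBCs. The HSC libraries with RBCs were below those without, by −0.28 ± 0.09, which did not pass (adjusted p = 0.189).

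The cytosolic RNA sensors differed little. Ddx58, which encodes RIG-I, was at 14.4 and 16.3 FPKM in HSCs alone, 14.3 and 14.97 with RBCs, 11.3 and 11.6 in LSK cells alone and 14.3 and 14.0 with RBCs. The 2 libraries of LSK cells alone were the lowest, and the difference from HSCs without RBCs was −0.39 ± 0.10 (adjusted p = 0.0367), which had an adjusted p of 0.159 without the second library of HSCs alone. Dhx58, which encodes the related helicase LGP2, was at 16.5 and 14.5 FPKM in HSCs alone, 19.2 and 17.2 with RBCs, 16.3 and 16.2 in LSK cells alone and 20.1 and 14.2 with RBCs. The groups overlapped in every comparison but RBCs in HSCs, and Dhx58 passed no test. Ifih1, which encodes MDA5, ranged from 7.17 to 9.27 FPKM and also passed none.

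The IFIT, viperin and Mx effectors split in direction between the cell types. Rsad2, which encodes viperin, an enzyme that makes a chain-terminating nucleotide against viral polymerases, was at 3.42 and 4.61 FPKM in HSCs alone, 4.11 and 4.04 with RBCs, 5.40 and 5.58 in LSK cells alone and 7.73 and 9.33 with RBCs. All 4 LSK libraries were above all 4 HSC libraries, by 0.64 ± 0.11 in the mean (adjusted p = 0.00248) and by 0.90 ± 0.16 with RBCs (adjusted p = 0.00398). Its RBC effect was 0.55 ± 0.16 in LSK cells, where libraries did not overlap but the test was not passed (adjusted p = 0.104), and 0.03 ± 0.16 in HSCs. Ifit2, which binds viral RNA and blocks its translation together with its relatives, was at 9.36 and 8.53 FPKM in HSCs alone, 8.26 and 9.81 with RBCs, 4.35 and 5.72 in LSK cells alone and 6.22 and 4.33 with RBCs. It ran the other way, all HSC libraries being above all LSK libraries, by −0.71 ± 0.13 (LSK minus HSC, adjusted p = 0.00311). Ifit1, its relative, was at 3.15 and 4.66 FPKM in HSCs alone, 4.26 and 3.79 with RBCs, 1.97 and 2.67 in LSK cells alone and 1.49 and 3.14 with RBCs. Its difference was −0.60 ± 0.18 (adjusted p = 0.0321), but the adjusted p rose to 0.1 without the second library of HSCs alone. Neither Ifit1 nor Ifit2 passed with RBCs, with effects from −0.04 to 0.05. Ifit3, Mx1 and Mx2 stayed near or under 1 FPKM in every library, ranging from 0.144 to 0.937, 0.0918 to 1.22 and 0.172 to 1.01 FPKM. The values of Ifit3 lay at 3 to 22 whole steps per library, which equal fragments only if 1 step is 1 fragment. Its level was therefore imprecise, and no difference in it was tested. Ifit3 has a close copy beside it on chromosome 19, and Mx2 is annotated as a polymorphic pseudogene.

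In the OAS family, synthetases whose oligoadenylate products activate RNase L, 3 of 5 genes were lower in LSK cells. Oas2 was at 1.78 and 1.60 FPKM in HSCs alone, 2.25 and 2.57 with RBCs, 0.291 and 0.935 in LSK cells alone and 0.423 and 0.665 with RBCs. Every LSK library was below every HSC library, by −0.96 ± 0.16 in the mean (adjusted p = 0.0017) and −1.15 ± 0.22 with RBCs (adjusted p = 0.00609). Oas3 was at 5.502 and 5.05 FPKM in HSCs alone, 2.82 and 5.31 with RBCs, 1.70 and 1.61 in LSK cells alone and 2.17 and 3.20 with RBCs. The difference was −1.24 ± 0.24 without RBCs (adjusted p = 0.00955, rising to 0.0529 without the second library of LSK cells alone) and −0.43 ± 0.24 with RBCs (adjusted p = 0.229). The first library of HSCs with RBCs lay within the range of the LSK libraries. Its RBC effects had opposite signs, −0.35 ± 0.24 in HSCs and 0.46 ± 0.24 in LSK cells, and neither passed (adjusted p = 0.613 and 0.345). Oasl2, an OAS-like protein, was at 26.6 and 30.6 FPKM in HSCs alone, 27.9 and 33.4 with RBCs, 17.2 and 20.3 in LSK cells alone and 22.1 and 19.0 with RBCs. It differed by −0.57 ± 0.09 (adjusted p = 0.00168) with no overlap between cell types, and its RBC effects were 0.09 ± 0.13 and 0.13 ± 0.13. Oas1a, a synthetase with several near-identical neighbours on chromosome 5, was at 31.2 and 30.1 FPKM in HSCs alone, 30.1 and 31.7 with RBCs, 26.9 and 32.0 in LSK cells alone and 24.5 and 26.3 with RBCs. Libraries overlapped between cell types, and Oas1a passed no test. Oasl1, which restrains translation of Irf7, ranged from 2.55 to 4.61 FPKM and passed none either.

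Among effectors that act on nucleic acids, Zbp1 was higher with RBCs. Zbp1, a sensor of Z-form nucleic acids that can start necroptosis and lies on the minus strand of chr2:173206612-173218923 (GRCm38), was at 3.03 and 3.33 FPKM in HSCs alone, 6.10 and 5.79 with RBCs, 3.05 and 3.77 in LSK cells alone and 5.05 and 5.65 with RBCs. All 4 libraries with RBCs were above all 4 without, which was true in the same direction of 3.13% of all genes. The effect was 0.73 ± 0.15 in HSCs (adjusted p = 0.0361), 0.53 ± 0.15 in LSK cells (adjusted p = 0.095) and 0.63 ± 0.10 in the mean of both (adjusted p = 0.00859). Zbp1 did not differ detectably between the cell types (−0.03 ± 0.10, adjusted p = 0.859). Isg20, an exonuclease, was at 40.1 and 38.5 FPKM in HSCs alone, 50.5 and 41.7 with RBCs, 29.6 and 33.1 in LSK cells alone and 34.6 and 42.7 with RBCs. Its libraries with RBCs were above those without in both cell types, by 0.22 ± 0.12 and 0.29 ± 0.12, neither of which passed (adjusted p = 0.507 and 0.25), and it was lower in LSK cells in the mean (−0.28 ± 0.09, adjusted p = 0.0331). Samhd1, which depletes deoxynucleotides, was at 22.6 and 27.1 FPKM in HSCs alone, 24.7 and 26.5 with RBCs, 26.8 and 27.2 in LSK cells alone and 31.2 and 29.6 with RBCs. It passed no test. Eif2ak2, which encodes the kinase PKR, and the RNA-editing enzyme Adar ranged from 8.96 to 11.9 and from 12.1 to 14.1 FPKM and passed none. Adar shares 1365 exonic bases with Chrnb2 on the opposite strand, and the library kit does not mark strand. Members that differed between the cell types overlap other genes as well. On the same strand, Ifnar2 shares 315 exonic bases with Gm21970, Rtp4 296 with Gm45338 and Ifitm2 268 with Gm45717. Irf5 shares 411 with Tnpo3 on the opposite strand. The part of shared reads in these values was not tested.

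In the ISG15 system and the Parp9 complex, Usp18 stood out by cell type. Usp18, the protease that removes ISG15 and also restrains signalling at Ifnar2, was at 8.85 and 13.6 FPKM in HSCs alone, 13.6 and 19.1 with RBCs, 9.08 and 6.93 in LSK cells alone and 9.53 and 8.10 with RBCs. The HSC libraries with RBCs overlapped those without, at an effect of 0.51 ± 0.22 (adjusted p = 0.354). LSK cells had less than HSCs with RBCs (−0.80 ± 0.22, adjusted p = 0.0279), but the adjusted p was 0.174 without the second library of HSCs with RBCs, which was the highest of the 8. Isg15 itself ranged from 2.24 to 9.54 FPKM, with effects of 0.13 ± 0.32 and 0.36 ± 0.32 that have the widest errors of the set. Parp9, a macrodomain protein that works with the ubiquitin ligase Dtx3l, was at 22.4 and 21.6 FPKM in HSCs alone, 23.6 and 21.7 with RBCs, 17.7 and 19.4 in LSK cells alone and 20.4 and 19.9 with RBCs. It was lower in LSK cells by −0.20 ± 0.07 (adjusted p = 0.0451, as high as 0.151 without single libraries). Dtx3l was at 19.1 and 20.9 FPKM in HSCs alone, 21.0 and 20 with RBCs, 18.6 and 20.7 in LSK cells alone and 22.03 and 20.3 with RBCs. It passed no test, and 458 of its exonic bases overlap Parp9 on the opposite strand. Parp14, another ADP-ribosyltransferase, was at 3.48 and 4.11 FPKM in HSCs alone, 2.63 and 2.81 with RBCs, 3.17 and 3.49 in LSK cells alone and 3.77 and 2.94 with RBCs. The HSC libraries with RBCs were below those without, by −0.36 ± 0.16 (adjusted p = 0.369), and in LSK cells they overlapped (0.00 ± 0.16). Trim25, the ubiquitin ligase for RIG-I, ranged from 14.6 to 20.4 FPKM and passed no test.

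Among the membrane restriction factors, Ifitm1 was lower with RBCs at an adjusted p under 0.05 in both cell types. Ifitm1, on the plus strand of chr7:140967221-140969825, was at 4636 and 5222 FPKM in HSCs alone, 3053 and 3113 with RBCs, 5329 and 3741 in LSK cells alone and 2888 and 2854 with RBCs. All 4 libraries with RBCs were below all 4 without, which was true in the same direction of 2.1% of all genes. The effect was −0.67 ± 0.14 in HSCs (adjusted p = 0.0408), −0.64 ± 0.14 in LSK cells (adjusted p = 0.0437) and −0.66 ± 0.10 in the mean (adjusted p = 0.00556). Without the first library of LSK cells alone, the highest of the 8, the effect in LSK cells was −0.38 with an adjusted p of 0.162. Ifitm2 was at 2292 and 2548 FPKM in HSCs alone, 2083 and 2108 with RBCs, 1877 and 1829.6 in LSK cells alone and 1774 and 1658 with RBCs. Its RBC effects, −0.21 ± 0.07 and −0.11 ± 0.07, did not pass (adjusted p = 0.234 and 0.46), while all LSK libraries were below all HSC libraries, by −0.34 ± 0.05 (adjusted p = 0.00121). Ifitm3 was at 3044 and 3573 FPKM in HSCs alone, 2505 and 2800.3 with RBCs, 2704 and 2522 in LSK cells alone and 2388 and 2361 with RBCs. It had the same signs, with RBC effects of −0.32 ± 0.09 and −0.14 ± 0.09 that did not pass (adjusted p = 0.138 and 0.475) and a cell type difference of −0.25 ± 0.07 (adjusted p = 0.0181). The Ifitm genes are close relatives in 1 cluster on chromosome 7, and reads shared among them may have been split by the counting. Bst2, which encodes the virus-tethering protein tetherin, ranged from 89.0 to 131 FPKM and passed no test.

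Of the other induced genes, Rtp4 and Ifi44 were lower in LSK cells and Ifi44 was higher with RBCs. Rtp4, a receptor transporter protein with antiviral activity, was at 24.3 and 22.9 FPKM in HSCs alone, 26.2 and 28.2 with RBCs, 12.9 and 12.2 in LSK cells alone and 12.8 and 13.0 with RBCs. The LSK libraries were all below the HSC libraries, by −0.94 ± 0.07 in the mean (adjusted p = 1.62e-05), −0.86 ± 0.09 without RBCs and −1.02 ± 0.09 with RBCs (adjusted p = 0.000527 and 0.000133), the last falling to −0.97 without the second library of HSCs with RBCs. In LSK cells its 4 libraries stayed within a narrow range with and without RBCs (0.04 ± 0.09). Ifi44, a GTPase-like protein induced by interferon, was at 10.6 and 10.7 FPKM in HSCs alone, 12.5 and 14.5 with RBCs, 5.22 and 4.89 in LSK cells alone and 8.15 and 8.62 with RBCs. The libraries of LSK cells with RBCs were above those without, at 0.63 ± 0.12 (adjusted p = 0.025), and those of HSCs likewise, at 0.31 ± 0.12, which did not pass (adjusted p = 0.278). The mean RBC effect was 0.47 ± 0.09 (adjusted p = 0.0129), and the LSK minus HSC difference was −0.79 ± 0.09 (adjusted p = 0.000182). Ifi35, which binds other interferon-induced proteins, was at 63.1 and 63.8 FPKM in HSCs alone, 64.6 and 64.0 with RBCs, 51.3 and 57.8 in LSK cells alone and 63.7 and 58.4 with RBCs. It was above its level without RBCs in both cell types by small amounts, 0.02 ± 0.08 and 0.16 ± 0.08, and passed no test. Xaf1, a partner of the apoptosis inhibitor XIAP, ranged from 9.10 to 13.4 FPKM and passed none. Trim30a, which dampens Toll-like receptor signalling, was at 17.6 and 17.8 FPKM in HSCs alone, 16.6 and 17.5 with RBCs, 13.7 and 15.2 in LSK cells alone and 17.6 and 18.5 with RBCs. Its libraries moved in opposite directions in the cell types, −0.05 ± 0.10 in HSCs and 0.30 ± 0.10 in LSK cells, and the difference between these did not pass (−0.36 ± 0.14, adjusted p = 0.338).

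**Figure D5:**
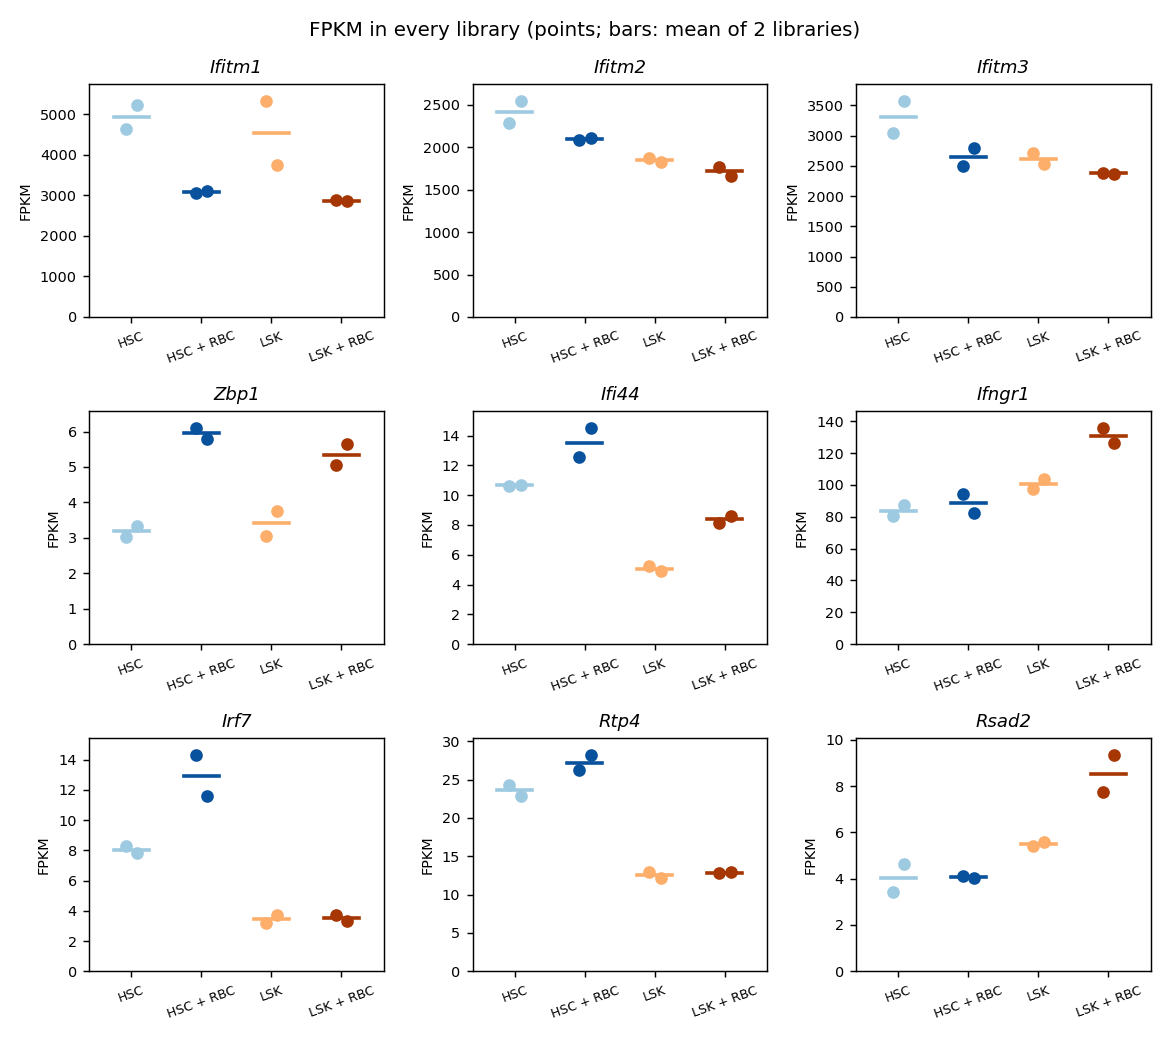
FPKM of 9 members in each of the 8 libraries. Points are libraries, bars are the means of 2 libraries, axes start at 0, and colours mark HSCs and LSK cells alone and with RBCs. Ifitm1 is lower and Zbp1 higher with RBCs in both cell types, Irf7 and Rtp4 are higher in HSCs, and Rsad2 and Ifngr1 are highest in LSK cells with RBCs.

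Signalling genes around the set were compared as listed groups that are not members. With RBCs, 0.633% of all genes were called higher in HSCs and 0.9% in LSK cells, and 0.142% and 0.108% lower. Of 10 receptor kinases, STATs and feedback genes, 1 was called higher with RBCs in LSK cells, Socs3, and 0 in HSCs, with 0 lower in either. Socs3, a feedback inhibitor of cytokine receptors, was at 6.83 and 6.76 FPKM in HSCs alone, 12.4 and 12.3 with RBCs, 7.93 and 9.90 in LSK cells alone and 24.1 and 28.9 with RBCs. The effect was 0.77 ± 0.13 in HSCs (adjusted p = 0.0178) and 1.48 ± 0.13 in LSK cells (adjusted p = 0.000687). Jak1, Tyk2 and Socs1 had RBC effects between −0.07 and 0.25, and none passed. Stat3 was higher with RBCs in LSK cells at 0.33 ± 0.07 (adjusted p = 0.0316), and Jak2 in the mean of both cell types at 0.34 ± 0.07 (adjusted p = 0.0288). Of 11 genes of nucleic acid sensing upstream of interferon, 9 were tested and 0 were called with RBCs. With no fold limit 2 were higher in LSK cells, Tlr7 and Ikbke, and 0 in HSCs (2.32% and 1.57% of all genes). The largest effect was 0.92, in Tlr7, and the smallest adjusted p in limma was 0.035. Ikbke was at 8.34 and 6.28 FPKM in HSCs alone, 7.04 and 10.3 with RBCs, 7.93 and 7.88 in LSK cells alone and 14.4 and 15.7 with RBCs. Irf3, which is activated by those sensors, had effects of 0.01 ± 0.09 and 0.07 ± 0.09. Tlr7, the endosomal sensor of single-stranded RNA, was at 0.149 FPKM or below in the HSC libraries and at 1.27, 1.81, 4.05 and 3.56 in the LSK libraries, and was called higher in LSK cells (1.72 ± 0.14, adjusted p = 2.81e-05).

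Of 35 further interferon-induced genes outside the set, 32 were tested, and with RBCs 1 was called higher in HSCs, Ifi27l2a at 1.09 ± 0.22 (adjusted p = 0.0353), and 0 in LSK cells. The median of these 32 was 0.00 in HSCs and 0.07 in LSK cells. Cxcl10, an interferon-induced chemokine, was lower with RBCs in the mean of both cell types (−0.55 ± 0.12, adjusted p = 0.0321), at 1.52 and 1.58 FPKM in HSCs alone and 0.515 and 0.531 with RBCs. Ly6a, which encodes the Sca-1 antigen used in the sort and is interferon-induced as well, was lower in LSK cells than in HSCs in the mean of both conditions (−1.12 ± 0.15, adjusted p = 0.000706). It was at 388 and 444 FPKM in HSCs alone, 719 and 544 with RBCs, 381 and 226 in LSK cells alone and 204 and 170 with RBCs. By these values the gap was wider with RBCs than without, but that widening did not pass the test. For the difference between the RBC effects in limma, the smallest adjusted p among these further genes, Ly6a included, was 0.182. The Gbp and immunity-related GTPases are induced mainly by interferon-γ and are not members. Of 17 tested, 4 were called higher with RBCs in HSCs and 6 in LSK cells (0.633% and 0.9% of all genes), and 0 lower. Gbp4 was at 5.81 and 5.75 FPKM in HSCs alone, 25.2 and 25.6 with RBCs, 5.26 and 9.57 in LSK cells alone and 33.6 and 31.0 with RBCs (1.96 ± 0.20 and 2.03 ± 0.20, adjusted p = 0.00154 and 0.00107). Gbp6, Gbp9 and Gbp11 were also called in both, with effects from 1.27 to 2.04, and Gbp8 and Gbp10 in LSK cells. The median of all 17 was 0.03 in HSCs and 0.25 in LSK cells. Near-identical Gbp genes may share reads. Between the cell types, 6 of the 17 were lower in LSK cells in the mean difference at an adjusted p under 0.05. Gbp11 was the 1 that was higher, at 0.99. Over all genes 16.8% were lower and 16.1% higher. Among the immunity-related GTPases only Iigp1 was called (−1.01), with Tgtp1, Tgtp2 and Igtp at −0.69, −0.63 and −0.43.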

How the data were processed

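RNA was sequenced from 8 libraries, 2 in each of 4 groups taken from the sample labels. The authors deposited FPKM per gene and library. The submitters' processing notes name TopHat2 2.1.1, Bowtie2 2.2.8, SAMtools 0.1.18, Cuffdiff 2.2.1 and the mm10 build; the annotation and the strand setting are not given in the sources used here. Absolute depth is unknown. Among 1723 low genes, 1366 (79.3%) took values in whole steps (tolerance 0.03), which gave relative depth only, and no count test was run. Full-length cDNA libraries from few cells can lose low transcripts.

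Genes with at least 1 FPKM in at least 2 libraries (12003 of 24346) were tested as log2(FPKM + 1) with limma 3.58.1 in R 4.3.3, with a mean-variance trend, all 4 groups in 1 fit, 4 residual and 5.18 prior degrees of freedom, and two-sided moderated tests. Fold changes on this scale understate those of low genes. A gene was called at 2-fold or more with an adjusted p below 0.05 (Benjamini-Hochberg, over all genes tested). The script was tested on simulated data. Values in each library are given for members with an adjusted p under 0.05 in any comparison, for the 5 largest RBC effects in each cell type and for the 2 most abundant members of each role; Trim30a was added after its values were seen. Other pathway genes are given as counts, with values for those called and for a fixed few. Stat3, Jak2, Ikbke, Cxcl10, Tgtp1, Tgtp2, Igtp, Ifnb1 and the cell markers named were added after their values were seen. Members and lists were chosen with earlier results of these data known. Overlapping genes were read from GENCODE M21 on GRCm38, and promoters from RefSeq on GRCm38.p6. Alternatives covered the pseudocount, the filter, library scaling, the trend, the libraries in the fit, the fold limit, a replicate block and leaving out each library. Figures were drawn with Python 3.11.15 and matplotlib 3.10.9. The values of 1 gene in the pathway lists are not reported here.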

Additional observations from a re-analysis of the deposited data

Results flagged for a closer look

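Trim30a moved in opposite directions with RBCs in the cell types: both libraries of HSCs with RBCs were below both without, and both libraries of LSK cells with RBCs were above both without. The difference between the effects, HSC minus LSK, was −0.36 on the log2 scale and did not pass the test of that difference in limma (adjusted p = 0.338).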

How the results depend on the processing

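None of the 57 single-member results changed direction under the alternatives run. They had been chosen for an adjusted p under 0.05 or for a large RBC effect. Dropping the filter or the trend, adding the replicate block or fitting only the groups compared leaves the fold change itself as it was. Direction could not change under those. With no fold limit, the members numbered 1 higher and 1 lower with RBCs in HSCs, 2 higher and 1 lower in LSK cells, and 2 higher and 1 lower in the mean of both; LSK cells against HSCs gave 11 lower without RBCs, 4 higher and 8 lower with RBCs, and 6 higher and 14 lower in the mean. With no filter, 1 member was lower in LSK cells without RBCs. The numbers of members called higher or lower in the rest of this paragraph are for LSK cells against HSCs, not for the RBC effects. A pseudocount of 0.1 gave 1 higher in LSK cells with RBCs and 3 lower in the mean difference. A pseudocount of 0.5 gave 2 lower in that mean. Quantile normalization gave 2 lower there and upper-quartile scaling 3. Upper-quartile scaling also moved the member medians to 0.14 for RBCs in HSCs, 0.18 for the mean RBC effect, and −0.29, −0.27 and −0.25 for LSK cells against HSCs without RBCs, with RBCs and in the mean, where it moved the median of all genes to 0.0953, 0.0596, −0.0721, −0.136 and −0.104 in the same order. Leaving out 1 library gave 1 to 2 lower members without RBCs, 0 to 1 higher and 2 to 4 lower with RBCs, and 1 to 2 lower in the mean. Across single-member results, 334 of 456 kept their side of the threshold when a library was left out, 33 of 57 with no filter and 57 of 57 under median-of-ratios scaling; the cause was not tested.

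Replicate numbers showed no sign of pairing across groups: the correlations of replicate differences between groups ran from −0.067 to 0.0954. Such correlations cannot exclude shared mice or culture days, which the sources used here do not give. A replicate block left 46 of 57 single-member results on their side of the threshold and changed no count of calls. Under the block the RBC effect of Zbp1 in HSCs was 0.73 (adjusted p = 0.0538), that of Ifitm1 −0.67 in HSCs (0.0674) and −0.64 in LSK cells (0.0712), and that of Ifngr1 in LSK cells 0.38 (0.0777). With 2 libraries per group, unknown depth and a log scale that shrinks low genes, small differences in members near 1 FPKM could not be resolved.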
